A study of Homo sapiens with 24 samples.

Results

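The genes described here are 4 aldo-keto reductases of the AKR1B and AKR1C families (AKR1B1, AKR1B10, AKR1C2 and AKR1C3), their relative AKR1E2, and 5 genes known as targets of the transcription factor NRF2 (NQO1, GCLM, TXNRD1, SRXN1 and HMOX1). They were taken as the probe sets of the deposited value table whose annotation gave exactly 1 of these symbols. Of the 10 genes, 9 had such a probe set, each 1 only, among 17448 genes tested. AKR1B1 was not analysed here.

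The values came from 24 microarrays in 9 groups of SW1222, a human cell line established from a colorectal cancer. The groups differed in DPPA3, a small protein of oocytes and early germ cells. Cells overexpressing DPPA3 under doxycycline (DPPA3-OE, the induced line) and their control line both received 5 µg/ml of the drug, for 5 days as Matrigel-embedded megacolonies (3D) or for 4 hours as flat cultures (2D), on 3 arrays per line and culture. DPPA3 shRNA cells and control shRNA cells had 3 arrays each, and the CRISPR knockout clones C66 and C75 and cells with a scrambled guide had 2 each, all in 3D. All cells were kept at 21% oxygen. Every group carries an engineered construct, and each knockout clone is 1 line, so a difference between a clone and its control can belong to that clone. The induced line was not analysed here without doxycycline, so an effect of DPPA3 cannot be told apart from a standing difference between the lines. The 3D and 2D arrays differ in culture and in length of drug treatment at once, and these cannot be told apart either. No label tells whether the replicates came from different cultures, so p-values measure the spread between these arrays, which may be technical.

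NRF2, encoded by NFE2L2, is held in the cytoplasm by KEAP1, which delivers it for degradation. When KEAP1 is modified by electrophiles or oxidants, NRF2 accumulates in the nucleus, pairs with small MAF proteins and binds antioxidant response elements, whereas BACH1 represses many of the same sites. Aldo-keto reductases reduce carbonyl groups with NADPH. AKR1B10 reduces retinaldehyde and lipid aldehydes, AKR1C2 and AKR1C3 reduce steroid hormones and prostaglandins, and the genes of the AKR1B and AKR1C families are among the known NRF2-responsive genes in human epithelial cells. The known functions of the other members are quinone reduction (NQO1), the regulatory subunit of glutathione synthesis (GCLM), thioredoxin reduction (TXNRD1), repair of overoxidised peroxiredoxins (SRXN1) and haem breakdown (HMOX1).

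The region around the transcription start, from 250 bases before to 50 after it, was available from NCBI RefSeq (GRCh38.p14) for 8 of the 10 genes, in 12 entries. Both strands were searched for the core of the antioxidant response element, TGACNNNGC, and for the core of the xenobiotic response element, GCGTG, which the aryl hydrocarbon receptor binds. The first occurred in 13.3% of 35116 windows of this length and the second in 36.5%. The windows shown are those of the 2 members with the antioxidant core (GCLM, and TXNRD1 at both starts), of NQO1, and of the 3 chromosome 10 reductases AKR1C2, AKR1C3 and AKR1E2, which fell with induction in both cultures. They lie at chr1:93909381-93909680 on the minus strand (GCLM), chr12:104215529-104215828 and chr12:104286782-104287081 on the plus strand (TXNRD1), chr16:69726511-69726810 on the minus strand (NQO1), chr10:5003808-5004107 on the minus strand (AKR1C2), chr10:5048531-5048830 on the plus strand (AKR1C3) and chr10:4825927-4826226 on the plus strand (AKR1E2). Capitals mark matches to either core, on either strand.
GCLM: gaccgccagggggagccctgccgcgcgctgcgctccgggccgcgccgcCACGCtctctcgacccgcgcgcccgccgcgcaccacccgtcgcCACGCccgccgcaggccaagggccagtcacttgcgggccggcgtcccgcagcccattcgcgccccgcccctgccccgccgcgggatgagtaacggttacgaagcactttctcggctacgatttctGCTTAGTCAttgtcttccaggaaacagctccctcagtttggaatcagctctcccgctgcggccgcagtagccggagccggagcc
TXNRD1 start 1: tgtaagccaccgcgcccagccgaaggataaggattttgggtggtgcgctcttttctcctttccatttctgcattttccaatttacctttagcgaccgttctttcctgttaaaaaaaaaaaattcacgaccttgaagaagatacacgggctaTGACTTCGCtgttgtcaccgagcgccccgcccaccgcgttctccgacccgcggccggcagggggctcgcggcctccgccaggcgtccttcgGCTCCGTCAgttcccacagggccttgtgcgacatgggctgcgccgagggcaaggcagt
TXNRD1 start 2: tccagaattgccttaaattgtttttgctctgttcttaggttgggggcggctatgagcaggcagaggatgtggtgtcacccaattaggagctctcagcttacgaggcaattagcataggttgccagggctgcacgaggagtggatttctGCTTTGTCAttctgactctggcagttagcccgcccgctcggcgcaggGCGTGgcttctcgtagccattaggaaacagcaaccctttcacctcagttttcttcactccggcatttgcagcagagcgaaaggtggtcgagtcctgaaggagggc
NQO1: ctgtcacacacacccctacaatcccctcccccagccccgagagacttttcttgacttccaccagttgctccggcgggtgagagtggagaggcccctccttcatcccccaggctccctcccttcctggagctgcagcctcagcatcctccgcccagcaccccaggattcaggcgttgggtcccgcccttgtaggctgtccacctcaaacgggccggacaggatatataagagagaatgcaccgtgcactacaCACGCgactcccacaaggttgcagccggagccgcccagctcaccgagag
AKR1C2: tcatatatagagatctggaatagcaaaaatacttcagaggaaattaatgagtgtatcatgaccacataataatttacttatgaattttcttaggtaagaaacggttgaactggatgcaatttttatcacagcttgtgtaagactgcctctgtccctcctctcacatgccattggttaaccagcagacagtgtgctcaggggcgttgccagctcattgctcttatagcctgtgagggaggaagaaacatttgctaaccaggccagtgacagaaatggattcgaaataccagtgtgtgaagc
AKR1C3 start 1: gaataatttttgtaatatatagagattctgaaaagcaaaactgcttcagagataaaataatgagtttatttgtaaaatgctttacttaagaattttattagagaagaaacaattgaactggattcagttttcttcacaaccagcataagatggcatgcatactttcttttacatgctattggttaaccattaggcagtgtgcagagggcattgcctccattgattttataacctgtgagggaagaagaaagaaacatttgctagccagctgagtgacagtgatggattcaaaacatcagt
AKR1E2 start 1: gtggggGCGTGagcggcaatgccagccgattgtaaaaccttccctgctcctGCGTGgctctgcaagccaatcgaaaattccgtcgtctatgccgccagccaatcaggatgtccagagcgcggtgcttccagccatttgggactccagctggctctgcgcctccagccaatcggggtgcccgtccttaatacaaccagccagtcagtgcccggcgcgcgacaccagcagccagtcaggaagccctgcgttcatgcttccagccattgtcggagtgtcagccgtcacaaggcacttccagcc
The antioxidant core stood at position -34 in GCLM, at -99 and -8 at TXNRD1 start 1 and at -102 at TXNRD1 start 2, where positions give the leftmost base and the transcript begins at 1. The xenobiotic core stood at -202 and -159 in GCLM, at -55 at TXNRD1 start 2, at 2 in NQO1 and at -244 and -199 at AKR1E2 start 1. No match of one core overlapped a match of the other. NQO1, AKR1E2 and, not printed, SRXN1 and AKR1B1 held the xenobiotic core and no antioxidant core in these windows. AKR1C2 and AKR1C3 held neither. For all of these genes a missing match says only that these letters are not in the windows. The sequence outside them was not searched. The AKR1C2 window was identical to that of its neighbour AKR1C1 at 96.0% of its 300 bases, and to AKR1C3 start 1 at 74.7%.

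Values are RMA signals on the log2 scale, so a difference of 1 is a 2-fold difference in signal. A gene was called where limma's moderated test over all 24 arrays gave an adjusted p (Benjamini-Hochberg over 17448 genes) under 0.05, and the number of arrays per group limits the precision. DPPA3 itself was higher in the induced line, at 3.77 to 4.74 in 3D against 2.59 to 2.99 in the control line, and at 4.18 to 6.16 in 2D against 2.83 to 3.47. In the arrays labelled shRNA and knockout its signal, 2.55 to 3.19, was not below that of their controls, 2.68 to 3.15, and neither label could be checked by it. Markers of colorectal epithelium averaged 8.56 to 9.12 on every array, while those of fibroblasts, endothelium and leukocytes averaged 2.60 to 3.35. The leukocyte list also held the haemoglobin gene HBB. In these bulk samples, fewer cells with a transcript and less transcript per cell cannot be told apart.

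Across the 9 groups the members differed in which group had the highest mean. AKR1C2, AKR1C3, AKR1B10 and TXNRD1 had their highest group mean in the control line in 2D. For AKR1B10 and TXNRD1 the arrays of both lines in 2D overlapped. GCLM and SRXN1 had their highest mean in the induced line in 2D. NQO1 was level in 2D, at 9.01 in the induced and 9.00 in the control line, with overlapping arrays. AKR1E2 and HMOX1 had their highest means in 3D groups, the control shRNA cells for AKR1E2 and clone C75 for HMOX1. The widest range over single arrays was that of AKR1C2, 4.92 to 8.53, followed by AKR1E2, 2.76 to 5.46. The narrowest ranges were those of HMOX1, 4.57 to 5.56, and NQO1, 8.19 to 9.17.

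The order of the group means had clear steps in some genes and none in others. In 2D, AKR1C2 averaged 7.56 ± 0.07 in the induced line and 8.45 ± 0.09 in the control line (SD, n = 3 each), the 2 highest groups. The control line in 3D came next below both, at 6.68 ± 0.28 (SD, n = 3), and none of these 3 groups overlapped another. Below them, the other 6 groups averaged 5.05 to 5.94, and 4 of their 5 neighbouring pairs overlapped. AKR1E2 had 1 large step, of 1.17, between clone C75 (mean 3.09) and the control line in 2D (mean 4.26). All 8 arrays of the induced line and of clone C75 read 2.76 to 3.28, and the other 16 read 4.14 to 5.46. Those 8 lie at the level of the fibroblast, endothelium and leukocyte markers (array averages 2.60 to 3.35). A fall to that level may be understated. In HMOX1 every group overlapped its neighbours in the order.

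**Figure D1:**
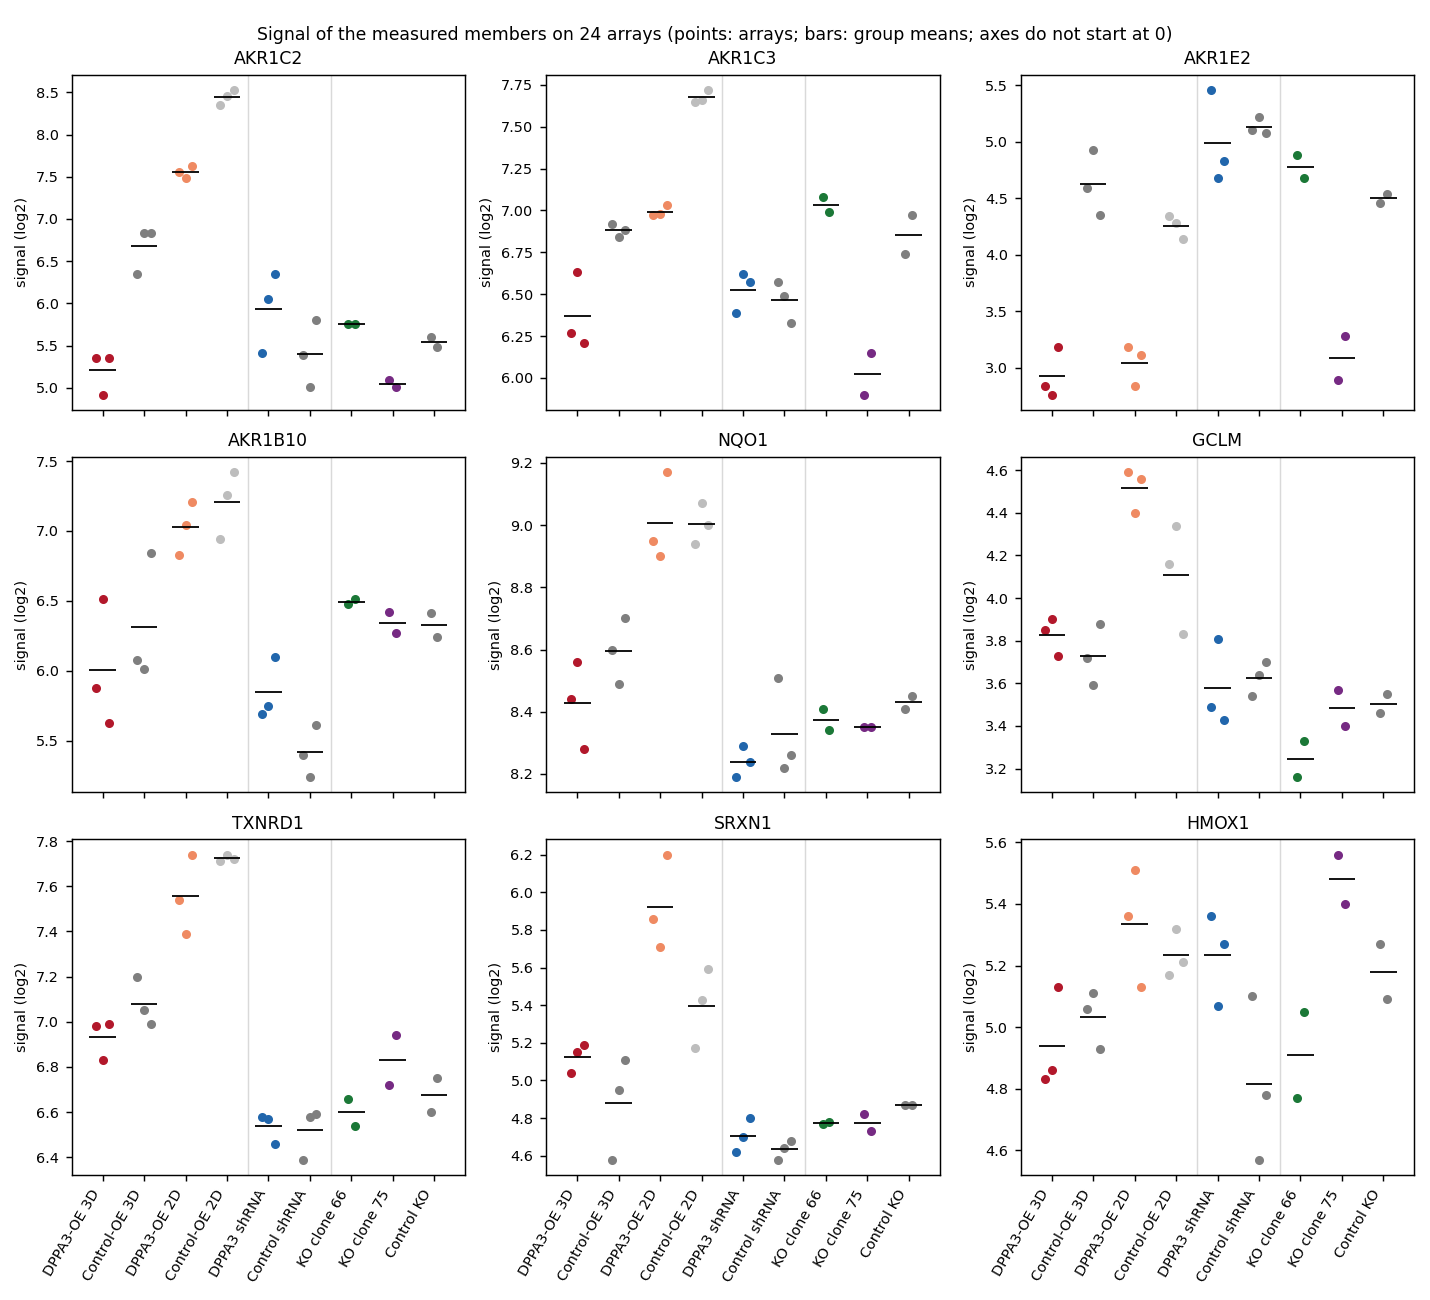
Signal (log2) of the 9 measured genes on each of 24 arrays, 1 panel per gene; points are arrays, bars are group means and the vertical axes do not start at 0. The 2D groups stand highest for AKR1C2 (7.49 to 8.53), and AKR1E2 splits into arrays at 2.76 to 3.28 and arrays at 4.14 to 5.46.

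Most members were lower in 3D than in 2D culture, in both doxycycline-treated lines. In the induced line 8 of 9 members fell, that is all but AKR1E2, where 14.9% of all genes were called and 7.35% were called lower. In the control line 6 of 9 fell (AKR1C2, AKR1B10, AKR1C3, TXNRD1, SRXN1 and NQO1), where 7.80% of all genes were called and 2.88% were called lower. No member was called higher in either line, against 7.55% of all genes in the induced line and 4.92% in the control line. The median log2 change of the members was -0.62 in the induced line and -0.52 in the control line, and that of all genes was -0.03 and -0.02. The members were listed with some of these changes already known, so the counts describe them and are no independent evidence.

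Among the reductases, AKR1C2, which inactivates dihydrotestosterone, had the largest difference. Its signal was 5.35, 4.92 and 5.36 in the induced line in 3D and 7.56, 7.49 and 7.63 in 2D. The control line had 6.35, 6.84 and 6.84 in 3D and 8.35, 8.46 and 8.53 in 2D. All 3D arrays lay below all 2D arrays, and within each culture the induced line lay below the control line. The 3D over 2D change was -2.35 (SE 0.19, 5.10-fold lower, adjusted p = 3.57e-09, limma) in the induced line, beside -1.77 (SE 0.19, adjusted p = 1.55e-06) in the control line.

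AKR1B10, whose known substrates include retinaldehyde, differed less and with more spread between 3D arrays. It read 5.88, 6.51 and 5.63 in the induced line in 3D and 6.83, 7.04 and 7.21 in 2D, which did not overlap. Control-line arrays read 6.08, 6.01 and 6.84 in 3D and 6.94, 7.26 and 7.42 in 2D, again without overlap, although replicate 3 in 3D came close to the lowest 2D array. The change was -1.02 (SE 0.20, adjusted p = 6.31e-04, limma) in the induced line and -0.90 (SE 0.20, adjusted p = 0.00521) in the control line. AKR1C3, a producer of testosterone and of prostaglandin F, was at 6.27, 6.63 and 6.21 in 3D and 6.97, 6.98 and 7.03 in 2D in the induced line. Its control-line signal was 6.92, 6.84 and 6.88 in 3D and 7.65, 7.66 and 7.72 in 2D. Neither line's cultures overlapped, and the changes were -0.62 (SE 0.11, adjusted p = 2.75e-04) and -0.80 (SE 0.11, adjusted p = 4.44e-05). AKR1E2 was the exception among the reductases, with -0.12 (95% interval -0.46 to 0.23) in the induced line and 0.36 (0.02 to 0.71, adjusted p = 0.194) in the control line. In the induced line its means were 2.93 in 3D and 3.04 in 2D, at the level of the markers of other cell types. A further fall in 3D could hardly be seen there.

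The 2 members of the thioredoxin system fell in both lines. TXNRD1 read 6.98, 6.83 and 6.99 in the induced line in 3D and 7.54, 7.39 and 7.74 in 2D. The control line read 7.20, 7.05 and 6.99 in 3D and 7.71, 7.74 and 7.72 in 2D. Cultures did not overlap in either line, and the changes were nearly equal, at -0.62 (SE 0.10, adjusted p = 1.27e-04, limma) and -0.64 (SE 0.10, adjusted p = 2.84e-04). SRXN1 read 5.04, 5.15 and 5.19 in 3D and 5.86, 5.71 and 6.20 in 2D in the induced line, a change of -0.79 (SE 0.13, adjusted p = 9.73e-05). In the control line it read 4.58, 4.95 and 5.11 in 3D and 5.17, 5.43 and 5.59 in 2D. There the change was -0.52 (SE 0.13, adjusted p = 0.0131), and the call was lost without control 3D replicate 1 (adjusted p = 0.102) or control 2D replicate 3 (adjusted p = 0.0775).

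For the quinone reductase NQO1 the steps were smaller. It read 8.44, 8.56 and 8.28 in 3D and 8.95, 8.90 and 9.17 in 2D in the induced line. Its control-line arrays read 8.60, 8.49 and 8.70 in 3D and 8.94, 9.07 and 9.00 in 2D. Every 3D array lay below every 2D array, by -0.58 (SE 0.10, adjusted p = 2.39e-04, limma) on average in the induced line and -0.41 (SE 0.10, adjusted p = 0.0135) in the control line. The control-line call was lost without control 3D replicate 2 (adjusted p = 0.0695).

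GCLM and HMOX1 were called in the induced line only, which does not show that the lines differ. GCLM, the modifier of glutamate-cysteine ligase, read 3.85, 3.90 and 3.73 in 3D and 4.59, 4.40 and 4.56 in 2D in the induced line, a change of -0.69 (SE 0.12, adjusted p = 2.75e-04, limma). In the control line it read 3.72, 3.59 and 3.88 in 3D and 4.16, 4.34 and 3.83 in 2D, which overlapped, with a change of -0.38 (SE 0.12, adjusted p = 0.0552). That value passed the threshold without control 3D replicate 3 (adjusted p = 0.0395) or control 2D replicate 3 (adjusted p = 0.0137). HMOX1, which degrades haem, read 4.83, 4.86 and 5.13 in 3D and 5.36, 5.51 and 5.13 in 2D in the induced line, where the highest 3D and the lowest 2D array were equal after rounding. Its change was -0.40 (SE 0.13, adjusted p = 0.0395), and it was lost without induced-line 3D replicate 1 or 2 (adjusted p = 0.150 and 0.120) and without 2D replicate 1 or 2 (0.0986 and 0.186). HMOX1 in the control line changed by -0.20 (95% interval -0.47 to 0.07).

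The difference between the lines in these culture effects is the same contrast as the difference between cultures in the induction effect. By limma 0 of 9 members were called in it and 1 of 9 (AKR1C2) had an unadjusted p under 0.05, where 0.241% of all genes were called. For AKR1C2 that difference was -0.58 (95% interval -1.13 to -0.03, adjusted p = 0.523), and for AKR1E2 it was -0.48 (-0.97 to 0.00, adjusted p = 0.562). The AKR1E2 value rests on induced-line arrays at the level of the markers of other cell types, which limits what it can show. For TXNRD1 it was 0.02 (-0.28 to 0.32).

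**Figure D2:**
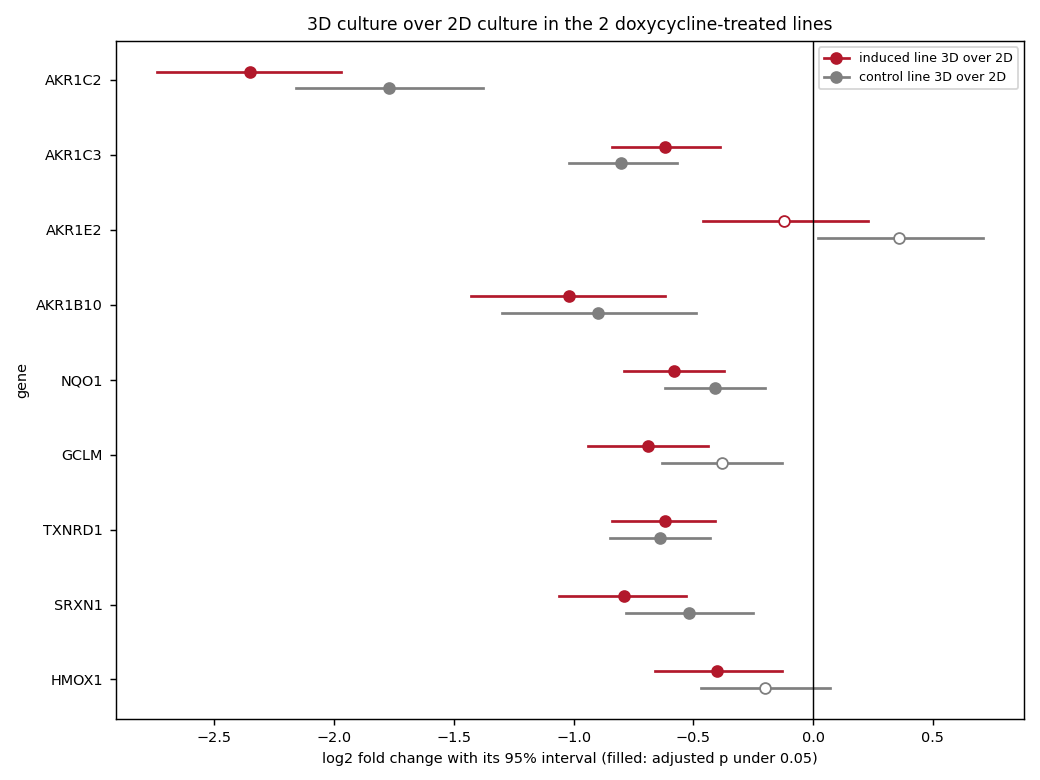
Log2 fold change of 3D over 2D culture for each gene in the induced and the control line, with 95% intervals; filled points passed an adjusted p of 0.05. AKR1C2 lies farthest to the left in both lines (-2.35 and -1.77), and AKR1E2 in the control line (0.36) is the single point above 0.

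Other genes of the NRF2 pathway were divided between 3D and 2D. Over all genes, 7.35% were called lower and 7.55% higher in the induced line in 3D, and 2.88% and 4.92% in the control line. Of 12 regulators tested, 3 fell in the induced line in 3D, namely NFE2L2 itself (-0.41, SE 0.09, adjusted p = 0.00354), its inhibitor KEAP1 (-0.39, SE 0.11, adjusted p = 0.0118) and PALB2, a KEAP1-binding partner of BRCA2 (-0.50, adjusted p = 0.00113). BTRC, an adaptor of another ubiquitin ligase for NRF2, rose in both lines (0.45 in the induced line and 0.43 in the control line). NFE2L2 read 8.02 to 8.23 in the induced line in 3D and 8.52 to 8.54 in 2D, with no overlap. In the control line its change was -0.21 (adjusted p = 0.193) and that of KEAP1 was -0.26 (adjusted p = 0.145). BACH1, the repressor, was called in none of the 9 comparisons, with 2 unadjusted p-values under 0.05 (-0.25 in the shRNA arrays and 0.25 for 3D over 2D in the induced line).

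The enzymes next to the members moved in both directions. The same shares over all genes apply, 7.35% lower and 7.55% higher in the induced line and 2.88% and 4.92% in the control line. In the glutathione list, 3 of 17 tested genes fell in the control line and none rose: GCLC, the catalytic partner of GCLM (-0.70, adjusted p = 6.41e-05), the glutathione reductase GSR (-0.62, adjusted p = 0.0148) and MGST1 (-0.41, adjusted p = 0.0408). In the induced line GCLM and GSR fell, while the cystine carrier subunit SLC7A11 (0.51, adjusted p = 0.00300) and CHAC1, which degrades glutathione (0.62, adjusted p = 0.0145), rose. Out of 17 genes, these induced-line counts are close to the shares over all genes. In the thioredoxin list, 3 of 8 fell and 1 rose in the induced line, and 5 fell and 1 rose in the control line. The gene that rose in both was TXNIP, the inhibitor of thioredoxin, at 8.71, 8.33 and 9.23 in 3D and 7.40, 7.65 and 7.63 in 2D in the induced line (1.20, adjusted p = 8.96e-06). TXN and PRDX6 fell in the control line (-0.45 each), and PRDX1 fell in the induced line (-0.34).

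Of 9 haem and iron genes, 2 were called higher and 4 lower in the induced line in 3D. Over all genes, 7.55% were called higher there and 7.35% lower. The iron exporter SLC40A1 rose by 1.35 (adjusted p = 6.43e-08), whereas ferrochelatase FECH (-0.60), ALAS1, the first enzyme of haem synthesis (-0.54), and BLVRA, which reduces biliverdin (-0.51), fell with HMOX1. In the control line SLC40A1 rose by 0.85 (adjusted p = 1.24e-04) and no gene of the list fell, where 4.92% of all genes were called higher and 2.88% lower. Of 16 detoxification genes, UGDH, which makes UDP-glucuronate, fell with NQO1 in both lines (-0.48 in the induced line and -0.66 in the control line), ALDH3A1 fell in the induced line (-0.82), and the transporter ABCC3 rose in both (0.88 and 0.46). NADPH-supplying enzymes showed 1 call in the induced line, TALDO1 (-0.50, adjusted p = 0.00100), and 0 in the control line by limma, where 1 had an unadjusted p under 0.05.

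NQO1 and ALDH3A1 also belong to the known targets of the aryl hydrocarbon receptor, which encode enzymes of foreign-compound metabolism. The list of 11 tested genes holds such targets together with the receptor gene AHR, its partner ARNT and NFE2L2. In 3D, 6 of the 11 fell in the induced line, NFE2L2 among them, and 1 rose. Over all genes, 7.35% were called lower there and 7.55% higher. In the control line 4 fell, where 2.88% of all genes were called lower. CYP1A1, the standard target of the receptor, read 5.80, 5.18 and 4.96 in the induced line in 3D and 9.48, 9.67 and 9.58 in 2D, a change of -4.26 (SE 0.19, adjusted p = 7.24e-14, limma). In the control line its change was -3.23 (SE 0.19, adjusted p = 4.57e-11). TIPARP, a repressor of the receptor, fell by 0.92 on the log2 scale in the induced line and by 0.72 in the control line. Whether the fall of the members depends on either factor was not tested.

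Induction of DPPA3 went with lower AKR1E2, AKR1C2 and AKR1C3, and these 3 were called in both cultures. In 3D, 3 of 9 members fell, where 5.70% of all genes were called and 2.77% were called lower, and 0 rose, where 2.93% were called higher. In 2D, 3 fell, where 3.13% of all genes were called and 1.26% were called lower, and SRXN1 rose, where 1.87% were called higher. Both comparisons involve the same pair of lines, and they share their arrays with the 3D over 2D comparisons.

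AKR1E2, known as a reductase of anhydrofructose, read 2.84, 2.76 and 3.18 in the induced line in 3D against 4.59, 4.93 and 4.35 in the control line. In 2D it read 3.18, 2.84 and 3.11 against 4.34, 4.28 and 4.14. The lines did not overlap in either culture. The change was -1.69 (SE 0.17, 3.23-fold lower, adjusted p = 2.32e-07, limma) in 3D and -1.21 (SE 0.17, 2.31-fold lower, adjusted p = 5.45e-05) in 2D. The induced-line signal was at the level of the markers of other cell types, so these folds may be understated. For AKR1C2, whose arrays are given above, the induced line was lower by -1.47 (SE 0.19, 2.77-fold, adjusted p = 9.94e-06, limma) in 3D and by -0.89 (SE 0.19, 1.85-fold, adjusted p = 0.00525) in 2D. AKR1C3 changed by -0.51 (SE 0.11, adjusted p = 0.00444) in 3D and -0.69 (SE 0.11, adjusted p = 3.11e-04) in 2D. None of the 3 was called in the test of the difference between cultures, where AKR1C3 had 0.18 (95% interval -0.14 to 0.50).

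SRXN1 was the member that rose, by 0.52 (SE 0.13, 1.44-fold, adjusted p = 0.0185, limma) in 2D, without overlap between the lines. This call was lost without induced-line 2D replicate 3 (adjusted p = 0.153) or control 2D replicate 1 (adjusted p = 0.142). It was also lost after repeated quantile normalisation (adjusted p = 0.0506) and with only the arrays of the comparison (adjusted p = 0.134). In 3D the change of SRXN1 was 0.25 (95% interval -0.02 to 0.51). GCLM was 0.41 (0.15 to 0.66, adjusted p = 0.0706) in 2D and 0.10 (-0.15 to 0.35) in 3D, and the 2D value passed without control 2D replicate 2 (adjusted p = 0.0248). Intervals for NQO1, TXNRD1 and HMOX1 in both cultures stayed between -0.38 and 0.37. Those for AKR1B10 were wider, -0.71 to 0.10 in 3D and -0.58 to 0.23 in 2D.

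**Figure D3:**
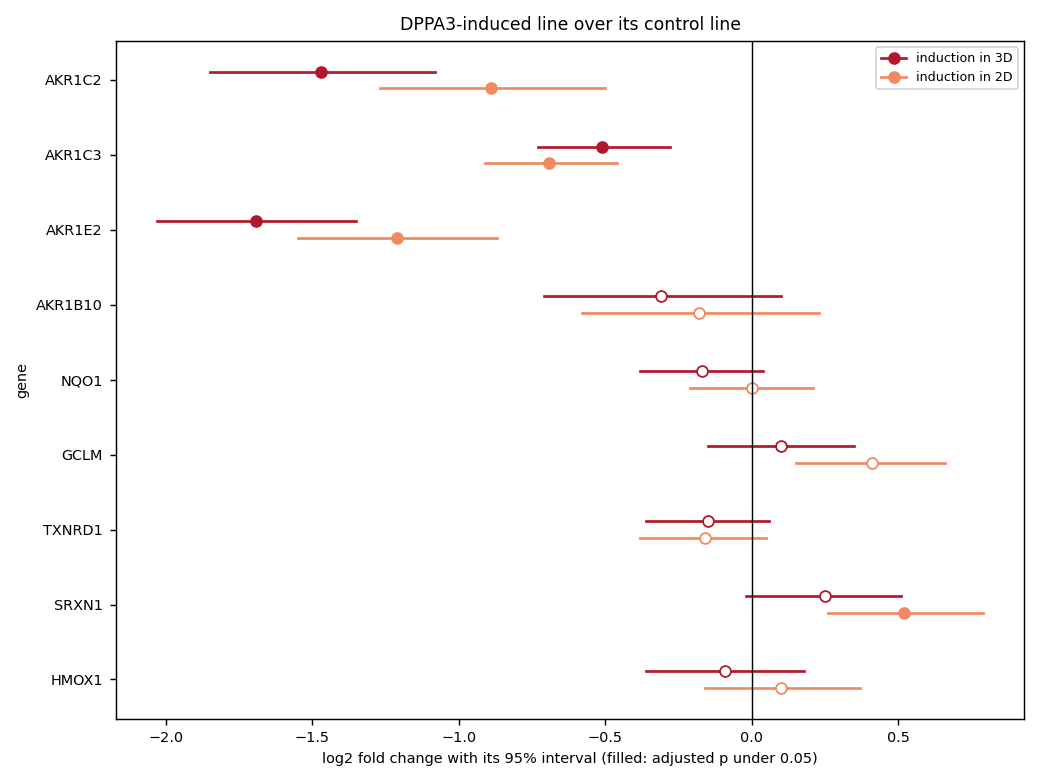
Log2 fold change of the induced over the control line for each gene in 3D and in 2D, with 95% intervals; filled points passed an adjusted p of 0.05. AKR1E2, AKR1C2 and AKR1C3 lie below 0 in both cultures (-1.69 to -0.51), and SRXN1 in 2D (0.52) is the single filled point above 0.

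The other lists differed in how many genes were called with induction. In 3D, where 5.70% of all genes were called, 0 of 17 glutathione genes, 0 of 8 thioredoxin genes and 0 of 12 regulators were called by limma, with 0, 0 and 1 at an unadjusted p under 0.05. At these list sizes, 0 calls is close to the share over all genes. Of 16 detoxification genes 3 rose, PTGR1 (0.55), EPHX1 (0.52) and UGDH (0.43), and of 9 haem and iron genes 2 rose, BLVRB (0.50) and the haem transporter SLC48A1 (0.51). In the list of the aryl hydrocarbon receptor and its targets 2 of 11 rose, and among the genes of retinoid and polyol metabolism 2 of 10. In 2D, where 3.13% of all genes were called, 2 of 17 glutathione genes fell, GCLC (-0.51, adjusted p = 0.00235) and SLC7A11 (-0.49, adjusted p = 0.0143). Of the detoxification genes 3 of 16 rose there, EPHX1 (0.58), ABCC2 (0.58) and ALDH3A1 (0.50), and IDH1 (0.35) rose among 5 NADPH-supplying enzymes. GCLC read 6.95, 6.96 and 7.02 in the induced line in 2D against 7.46, 7.49 and 7.50 in the control line, whereas its partner GCLM had a higher mean in the induced line. NFE2L2 changed by -0.19 (adjusted p = 0.316) in 3D and 0.01 (adjusted p = 0.985) in 2D.

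Of the 12 aldo-keto genes tested, 4 fell with induction in 3D and 8 were not called, where 2.77% of all genes were called lower. Members made up 3 of those 4. The fourth was AKR1C1, which lies between AKR1E2 and AKR1C2 in gene order and encodes a close relative of AKR1C2. AKR1C1 read 3.20, 3.51 and 2.95 in the induced line in 3D against 4.45, 4.60 and 4.68 in the control line, a change of -1.35 (SE 0.26, adjusted p = 0.00144, limma). In 2D it read 4.94, 4.99 and 3.59 against 4.03, 3.91 and 4.68, which overlapped (0.30, 95% interval -0.24 to 0.84), while AKR1C2 fell there. The difference between cultures in AKR1C1 was -1.65 (adjusted p = 0.0544). Its induced-line arrays in 3D lie at or just above the level of the markers of other cell types (array averages 2.60 to 3.35). Both the fall in 3D and this difference may therefore be understated. The transcripts of AKR1C1 and AKR1C2 are nearly identical, so part of each signal may come from the other gene, which was not tested.

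The reductases that fell with induction lie next to each other on chromosome 10, and many of their neighbours were also lower. Among the 10 tested genes on each side of AKR1E2 in RefSeq gene order, 17 of 20 were below 0 with induction in 3D (median -0.25). Of these 20, 7 were called lower, where 2.77% of all genes were. In 2D, 15 of 20 were below 0 (median -0.19), and 6 were called lower, where 1.26% of all genes were. Relative to the median of its neighbours AKR1E2 stood at -1.45 in 3D and -1.03 in 2D. AKR1C3 stood closer to its own neighbours, at -0.26 and -0.51. The neighbours of AKR1E2 include AKR1C1, AKR1C2 and AKR1C3, which are themselves among those called lower in 3D. AKR1C2 and AKR1C3 are also among those called lower in 2D. The part of the region in the reductases' fall was not tested. AKR1B10, on chromosome 7, had 18 of 20 neighbours below 0 in 3D (median -0.16), with 3 called lower. Around NQO1, GCLM, TXNRD1, SRXN1 and HMOX1 the median of the neighbours stayed between -0.04 and 0.04 with induction in both cultures.

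**Figure D4:**
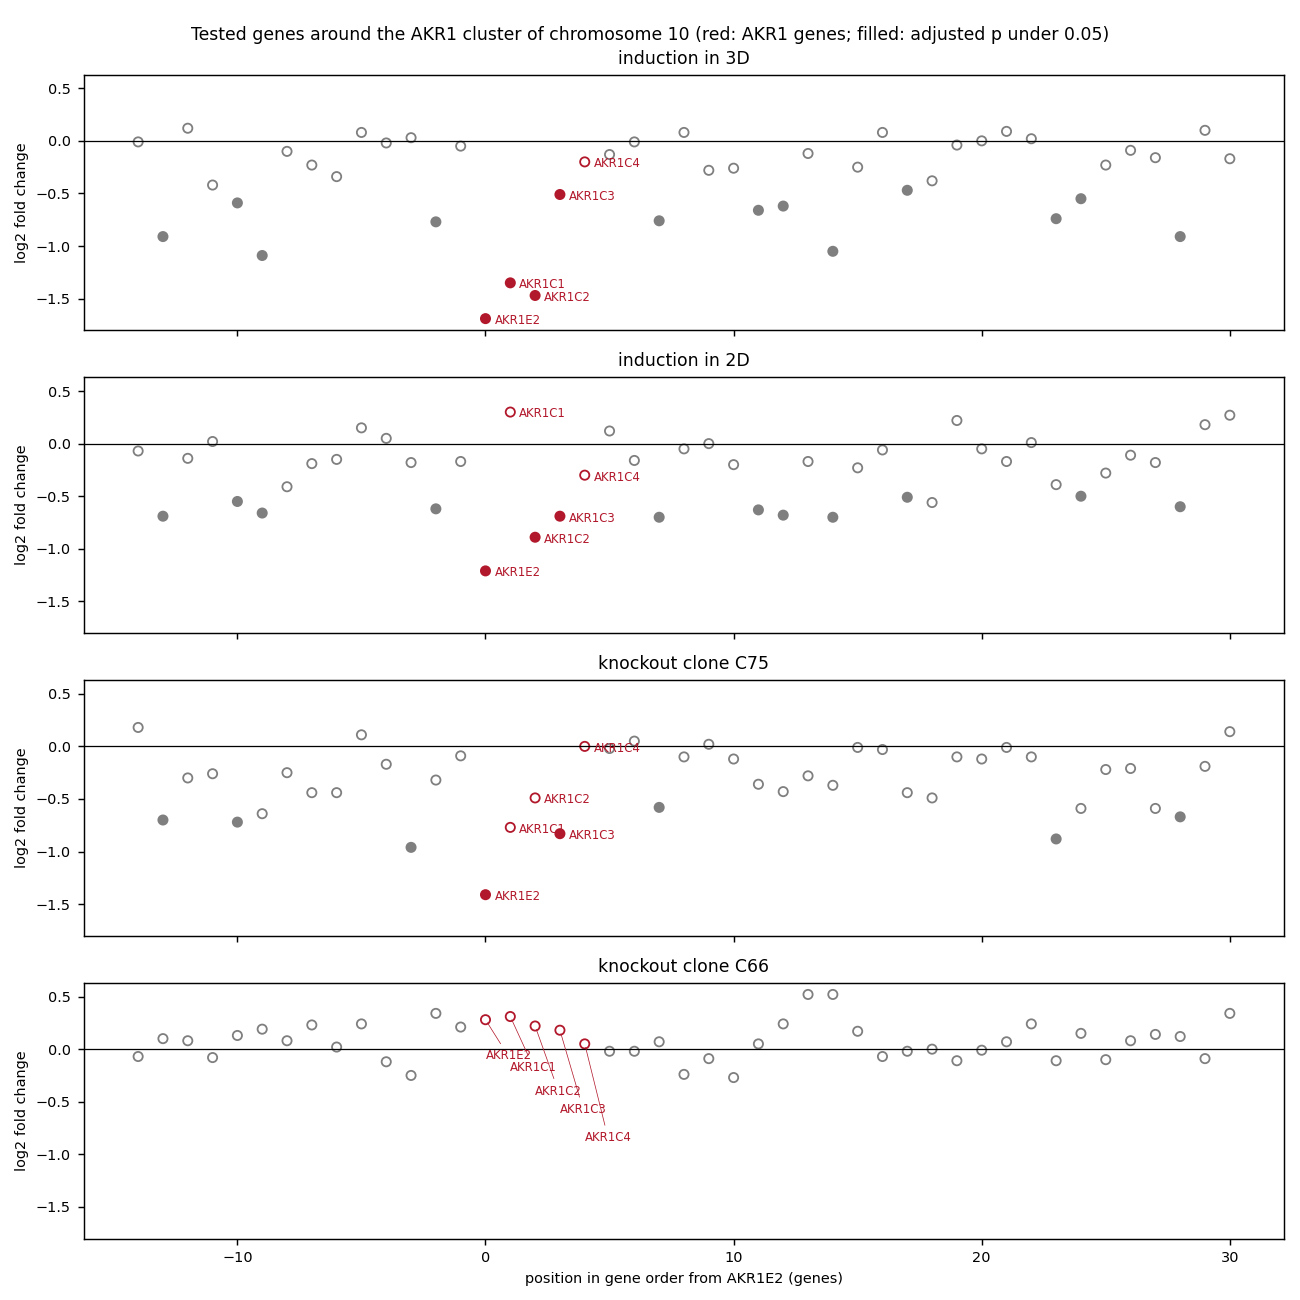
Log2 fold change of each tested gene against its place in gene order from AKR1E2 on chromosome 10, for induction in 3D, induction in 2D, clone C75 and clone C66; red points are AKR1 genes and filled points passed an adjusted p of 0.05. AKR1E2 is the lowest of its panel for induction in 3D (-1.69), in 2D (-1.21) and in clone C75 (-1.41), and no gene is filled for clone C66.

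Knockdown of DPPA3 gave no call among the members. By limma 0 of 9 were called and 3 had an unadjusted p under 0.05, where 0.0860% of all genes were called, 0.0344% higher and 0.0516% lower. Those 3 had higher means in the shRNA arrays. AKR1C2 read 5.41, 6.05 and 6.35 in the DPPA3 shRNA arrays and 5.39, 5.01 and 5.81 in the control shRNA arrays, which overlapped (0.53, 95% interval 0.14 to 0.92, adjusted p = 0.650). AKR1B10 read 5.69, 5.75 and 6.10 against 5.40, 5.24 and 5.61, without overlap (0.43, 0.03 to 0.84, adjusted p = 0.893). HMOX1 read 5.36, 5.07 and 5.27 against 5.10, 4.57 and 4.78, which overlapped (0.41, 0.15 to 0.68, adjusted p = 0.531). AKR1E2, at -0.14 (-0.49 to 0.20), and AKR1C3, at 0.06 (-0.16 to 0.29), had intervals that did not reach the falls in the induced line.

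The knockout clones differed from each other in the chromosome 10 reductases. In clone C75, AKR1E2 and AKR1C3 fell, 2 of 9 members, where 0.619% of all genes were called and 0.481% were called lower, and 0 rose, where 0.138% were called higher. In clone C66, 0 of 9 members were called by limma and 0 had an unadjusted p under 0.05, where 1.43% of all genes were called, 0.871% higher and 0.562% lower. Between the clones AKR1E2 and AKR1C3 were higher in C66, where 2.90% of all genes were called and 1.98% were called higher, and HMOX1 was lower, where 0.923% were called lower. The clones share their control arrays.

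AKR1E2 read 2.89 and 3.28 in clone C75 and 4.88 and 4.68 in clone C66, against 4.46 and 4.54 in the scrambled-guide cells. Both C75 arrays lay below both controls, and both C66 arrays lay above them. The change was -1.41 (SE 0.20, 2.67-fold, adjusted p = 2.74e-04, limma) in C75 and 0.28 (95% interval -0.14 to 0.70) in C66. The C75 signal was at the level of the markers of other cell types, so its fold may be understated. The difference of C66 over C75 was 1.70 (SE 0.20, adjusted p = 5.68e-06).

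AKR1C3 read 5.90 and 6.15 in clone C75 and 7.08 and 6.99 in clone C66, against 6.74 and 6.97 in the scrambled-guide cells. It was thus lower in C75 on both arrays, with a change of -0.83 (SE 0.13, adjusted p = 0.00115, limma), which did not pass without C75 replicate 1 (adjusted p = 0.0579) or scrambled-guide replicate 2 (adjusted p = 0.0537). C66 over C75 gave 1.01 (SE 0.13, adjusted p = 2.30e-05). AKR1C2 read 5.09 and 5.01 in C75 and 5.76 on both C66 arrays, against 5.60 and 5.48 in the controls, in the same order but short of the threshold (C75 -0.49, adjusted p = 0.581, and C66 over C75 0.71, adjusted p = 0.119). HMOX1 read 5.56 and 5.40 in C75 and 4.77 and 5.05 in C66, against 5.27 and 5.09 in the controls. Its difference of C66 over C75, -0.57 (SE 0.16, adjusted p = 0.0495), failed without any 1 of the 4 clone arrays (adjusted p 0.0641 to 0.513).

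**Figure D5:**
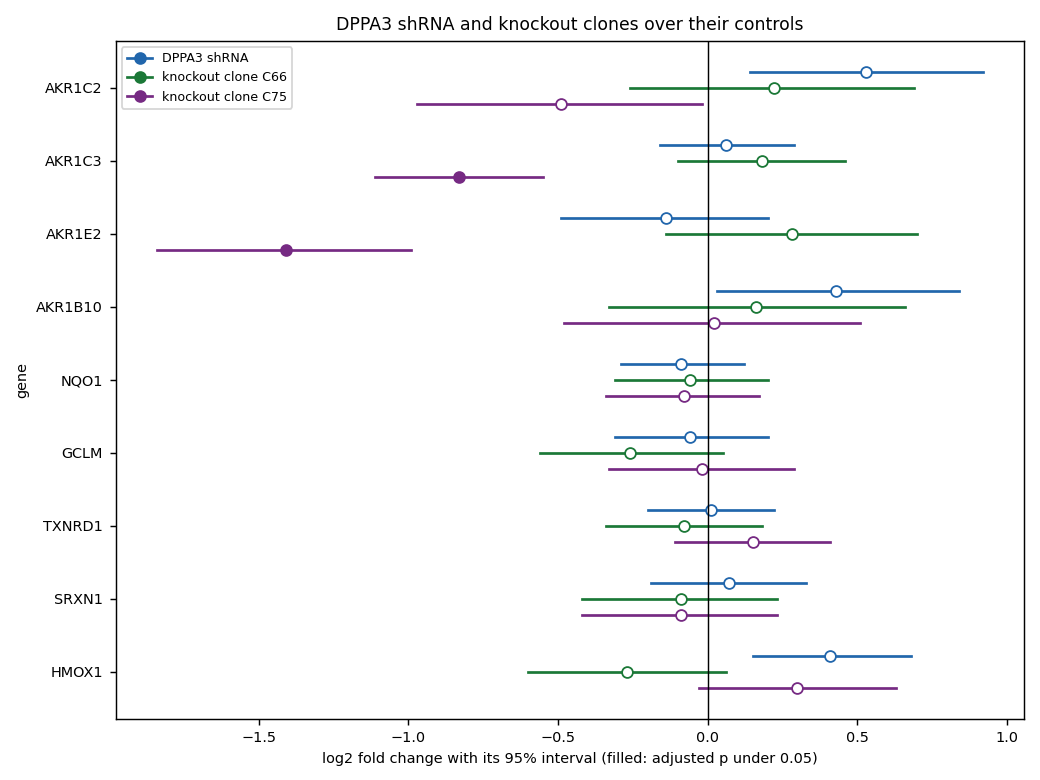
Log2 fold change of each gene in the DPPA3 shRNA arrays and in knockout clones C66 and C75 over their own controls, with 95% intervals; filled points passed an adjusted p of 0.05. The filled points are AKR1E2 (-1.41) and AKR1C3 (-0.83) in clone C75.

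The neighbourhood differed between the clones as well. Of the 20 neighbours of AKR1E2, 17 were below 0 in clone C75 (median -0.28, with 4 called lower) and 7 in clone C66 (median 0.08, with 0 called by limma). Over all genes, 0.481% were called lower in C75 and 1.43% were called in C66. Between the clones 7 of the 20 were called higher in C66, where 1.98% of all genes were. AKR1C3 is among the neighbours called in C75 and between the clones. Relative to the median of its neighbours AKR1E2 stood at -1.13 in C75.

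NQO1, GCLM, TXNRD1 and SRXN1 had no call in either clone. NQO1 differed between C66 and C75 by 0.03 (95% interval -0.23 to 0.28) and SRXN1 by 0.00 (-0.32 to 0.32). In the pathway lists, GSTA1, a glutathione transferase, rose in C66, at 5.79 and 5.75 against 4.39 and 4.63 in the controls (1.26, adjusted p = 0.00310, limma). The carboxylesterase CES1 also rose there, by 1.16 (adjusted p = 0.00107). In the same clone the keratin KRT20, a marker of differentiated colorectal epithelium, was higher by 0.61 (adjusted p = 0.0415), and CD68, from the leukocyte list, by 0.71 (adjusted p = 0.0108). KRT20 was the only call among 11 epithelium markers. The other 4 genes of the leukocyte list, the haemoglobin gene HBB among them, were not called, and their part in the result was not tested.

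How alike the members were depended on the experiment. Over the 12 induction arrays, which hold both cultures and both lines, Pearson's r of NQO1 was 0.939 with AKR1B10, 0.905 with TXNRD1 and 0.864 with AKR1C2. Over the 6 shRNA arrays, all in 3D, the same pairs gave -0.288, -0.781 and -0.0753, and over the 6 knockout arrays they gave -0.373, -0.0847 and 0.388. AKR1C2 and AKR1C3 had 0.914 over the induction arrays, 0.284 over the shRNA arrays and 0.925 over the knockout arrays. AKR1E2 and AKR1C3 had 0.504, -0.671 and 0.993 in the same order of experiments. The pooled values over all 24 arrays, 0.820 for NQO1 with AKR1B10 among them, were taken after the mean of each experiment was subtracted. They still include the differences between cultures. All these values describe arrays that share lines and experiments, and carry no test.

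The genes most like each member were sought among all genes tested, by Pearson's r over the 24 arrays after the mean of each experiment was subtracted. For AKR1C3 they were CDC123 (0.905) and NUDT5 (0.900), both also on chromosome 10. AKR1E2 was most like CYP4X1 (0.926) and NELL2 (0.921), which lie on chromosomes 1 and 12. AKR1C2 was most like ANP32E (0.888) and HNRNPM (0.878), and AKR1B10 like CACYBP (0.885) and CCT2 (0.884). NQO1 was most like SPDL1 (0.918) and PSMC1 (0.914), and TXNRD1 like HNRNPDL (0.918) and PSMD12 (0.916). GCLM was nearest to TYMS (0.886) and EIF3J (0.885), SRXN1 to CCT5 (0.899) and BRIX1 (0.876), and HMOX1 to GCNT3 (0.795) and MRPS17 (0.764). No member was among the 2 nearest genes of another.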

How the data were processed

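Gene expression was measured on 24 1-colour microarrays in 9 groups. The authors deposited 1 table of log2 signals for 20276 probe sets, for which the submitters' processing notes name RMA and Partek 6.6. Per the labels' protocols, Trizol RNA was made into biotinylated cRNA the Affymetrix way. The deposited log2 values ran from 1.56 to 12.51, with array medians of 4.01 to 4.12. RMA equalises arrays, so a change shared by most genes would not be seen. Across genes, which are not independent of each other, replicates had r = 0.988 to 0.994, and 0 pairs of arrays were identical. No genome build is named for the probes in the sources used here.

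In the platform annotation 18062 probe sets had 1 gene symbol, 1288 several and 926 none. The probe set of highest mean represented each of 17448 genes. limma 3.58.1 in R 4.3.3 was fitted with 1 coefficient per group over all 24 arrays (lmFit, eBayes, 15 residual and 9.81 prior degrees of freedom), with 2-sided tests, Benjamini-Hochberg adjustment over all genes and calls at 0.05. Folds are from log2 differences. The code was tested on simulated data.

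Members and gene lists were chosen with earlier results of these data known. Named besides the members were NFE2L2, KEAP1, BACH1, DPPA3 and CYP1A1, up to 4 called genes per list, comparison and direction with the largest change, and the 2 genes most like each member by Pearson's r. AKR1C1, in comparisons where it was not called, was named after its values were seen. The lists covered NRF2 regulators, glutathione, thioredoxin, NADPH supply, haem and iron, detoxification, the aldo-keto superfamily, the aryl hydrocarbon receptor with its targets, retinoid enzymes and cell type markers. Neighbours were the 10 tested genes on each side in RefSeq gene order. Promoter windows came from RefSeq (GRCh38.p14), and identity from global alignment with Biopython 1.88.

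Alternatives were centring on array medians, repeated quantile normalisation, the mean of a gene's probe sets, genes above the median level only, an intensity trend with robust prior, array weights, a fit to the arrays of the comparison, the replicate number as a block, and leaving out each array. Replicate numbers did not pair the arrays: same-numbered arrays of compared groups correlated at -0.209 to 0.168 in their deviations.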

Additional observations from a re-analysis of the deposited data

Results flagged for a closer look

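The knockout clones differed by limma's test of C66 over C75 in 3 of 9 members, where 2.90% of all genes were called. AKR1E2 was 1.70 higher and AKR1C3 1.01 higher in C66 on the log2 scale, and HMOX1 differed by -0.57. Each had arrays that did not overlap between the clones. The HMOX1 call was marginal (adjusted p = 0.0495, limma). It was lost with an intensity trend and robust prior (0.0587) and with only the arrays of the comparison (0.0636). Without 1 of the clone arrays its difference ran from -0.71 to -0.43. The chromosome 10 neighbours of AKR1E2 were also higher in C66 (median 0.39), and their part in the AKR1E2 and AKR1C3 differences was not tested.

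In the pathway lists the same test gave GSTA1 (1.99), GSTA4 (0.76) and CES1 (0.71) higher in C66, which metabolise electrophiles and esters. The aldehyde dehydrogenases ALDH1A1 and ALDH3A1 were each 0.65 higher in C66, and GCLC differed by -0.48. Of the marker genes, KRT20 was 0.97 higher and CD68 1.08 higher in C66. They were the only calls among 11 epithelium and 5 leukocyte markers. Of the epithelium markers 5 were above 0 and 6 below (median -0.04). Of the leukocyte markers 1 was above 0 and 4 below (median -0.10). The CD68 arrays were at 5.75 and 5.98 in C66, against 4.60 and 4.97 in C75.

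The induction effect on KRT20 differed between cultures by 0.93 (adjusted p = 0.0239, limma). KRT20 read 7.82, 7.72 and 7.85 in the induced line in 3D against 7.56, 7.49 and 7.16 in the control line. In 2D it read 7.09, 7.12 and 7.32 against 7.66, 7.68 and 7.80.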

How the results depend on the processing

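Of 81 values (9 members in 9 comparisons), 26 were called. Over 1125 recomputed values 0 called values reversed, and 19 of the 26 kept their call under every alternative run. Calls lost somewhere were AKR1C3 for induction in 3D and in C75, SRXN1 for induction in 2D and for 3D over 2D in the control line, NQO1 for 3D over 2D in the control line, and HMOX1 for 3D over 2D in the induced line and for C66 over C75. With only the arrays of the comparison, AKR1C3 in induction in 3D had an adjusted p of 0.0639, and SRXN1 in induction in 2D had 0.134. For 3D over 2D, NQO1 had 0.0749 and SRXN1 0.0940 in the control line, and HMOX1 had 0.0739 in the induced line. For C66 over C75, HMOX1 had 0.0636. Calls gained somewhere were GCLM for induction in 2D and for 3D over 2D in the control line, and AKR1C2 for C66 over C75 (adjusted p 0.0101 to 0.143 over the settings that kept all arrays). The number of members called in C75 was 2, and 1 without scrambled-guide replicate 2 or C75 replicate 1 (range 1 to 2). GCLM could not be tested among genes above the median level.

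The replicate block changed 1 call, AKR1C2 for C66 over C75 (adjusted p = 0.0476), and gave 4 members called there against 3; the other comparisons had 3 (induction in 3D), 4 (induction in 2D), 6 (control line 3D over 2D), 8 (induced line 3D over 2D), 2 (C75) and 0 calls, as without it. Over all genes, the fit to the arrays of the comparison called 468 genes against 995 for induction in 3D, 314 against 546 in 2D, 562 against 1361 for 3D over 2D in the control line and 7 against 42 for the difference. Array weights called 546 against 250 in C66, 256 against 108 in C75 and 26 against 15 for the shRNA. Leaving out 1 array gave 89 to 120 genes in C66, 38 to 67 in C75, 259 to 270 against 506 for C66 over C75, 875 to 1221 for the control line, 663 to 989 for induction in 3D, 11 to 70 for the difference and 8 to 12 for the shRNA. Why the calls changed was not tested, and 2 or 3 arrays per group limit all of them.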

Other observations

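Among genes of retinoid and polyol metabolism, the enzymes of which share substrates with the members, 2 of 10 tested were called with induction in 3D and 1 of 10 in 2D. Over all genes 5.70% and 3.13% were called, and a list of 10 is too short to tell these counts from those shares. ALDH1A1, which oxidises retinaldehyde, rose with induction in 2D by 0.69 (adjusted p = 1.12e-04, limma) and was lower in 3D than in 2D in the induced line (-0.67, adjusted p = 3.86e-05). It was also higher in clone C66 than in the scrambled-guide cells by 0.65 (adjusted p = 0.00331). RDH11 (0.46, adjusted p = 0.0433) and RDH10 (0.42, adjusted p = 0.0226), which interconvert retinol and retinaldehyde, rose with induction in 3D.

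In the list of the aryl hydrocarbon receptor and its targets, the receptor gene AHR rose with induction in 2D by 0.42 (adjusted p = 0.0128, limma). CYP1B1 (0.51, adjusted p = 0.00795) and SLC7A5 (0.63, adjusted p = 0.0435) rose in 3D. CYP1B1 was lower in 3D than in 2D in the control line by -0.90 (adjusted p = 3.06e-05).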
